A study of Mus musculus with 4 samples.

Results

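The Shox2 landscape is described here as the Pitx1 ChIP-seq peaks whose midpoints fall in a window of 1 Mb on mouse chromosome 3, from 66100000 to 67100000 (build mm9). The window holds Shox2 at about 66.78 Mb, Rsrc1 and the stretch toward Veph1. It contained 37 of the 14753 peaks of replicate 1 and 44 of the 25027 peaks of replicate 2. Where peaks of the lists overlapped by 1 bp or more they were merged, which gave 31 replicated regions of 10274 in all. The window was chosen by gene position, with the peak counts and scores of these lists already known. Its peak number and the strength of its peaks are therefore given as a description, without a test.

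The study used embryonic hindlimb buds of wild-type ICR mice at stage E11.5 (embryonic day). It holds 2 libraries from chromatin precipitated with a Pitx1 antibody and 2 libraries of input chromatin, from the same strain, tissue, age and genotype. Material from 3 ChIPs went into the libraries, and the labels leave unsaid whether the replicates are separate litters, so any difference between the libraries may be a technical one. Chromatin from whole buds averages over all the cell types in them. Peaks from input, from a control antibody or from Pitx1-mutant tissue were not analysed here, so a replicated peak is a recurrent enrichment in this ChIP and no more.

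Pitx1 is a homeodomain transcription factor made in the early hindlimb bud and not in the forelimb bud, where it takes part in giving the leg its identity. Shox2 encodes another homeodomain factor, made in the proximal limb bud of both limbs, where it is needed for growth of the humerus and femur; it is also needed in the pacemaker region of the heart. Genes of this kind are often controlled by enhancers far from their promoters, and limb enhancers of Shox2 have been described in the gene-poor stretch on its downstream side.

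The order of genes along the locus was taken from the RefSeq annotation of GRCm38.p6, whose positions differ from those of mm9 and are not given. From low to high coordinates it runs Veph1, Shox2, Rsrc1 and Mlf1, with Ptx3 lying inside the span of Veph1. Between Veph1 and Shox2 that annotation lists lncRNAs and pseudogenes and no protein-coding gene. Veph1 encodes a protein with a pleckstrin homology domain, Ptx3 a secreted pentraxin of innate immunity, and Rsrc1 a protein linked to splicing. Shox2 is on the minus strand, so lower coordinates lie downstream of it and higher ones upstream, on the Rsrc1 side. Rsrc1 is on the plus strand and its span overlaps that of Shox2. The position of 66.78 Mb is approximate, so distances to Shox2 below are good to a few kb only.

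The promoter of Shox2 is shown because several peaks lay within 10 kb of the gene. The sequence is the 250 bases before the RefSeq gene start (GRCm38.p6, chromosome 3, minus strand), read 5′ to 3′ on the strand of the gene, with the homeodomain core TAAT in capitals.
Shox2 promoter: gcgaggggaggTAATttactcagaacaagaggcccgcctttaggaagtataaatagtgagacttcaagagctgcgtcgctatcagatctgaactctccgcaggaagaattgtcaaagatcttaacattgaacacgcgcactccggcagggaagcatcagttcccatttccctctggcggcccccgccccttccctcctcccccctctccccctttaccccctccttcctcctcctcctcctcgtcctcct
The letters TAATCC, the core read by Pitx and related bicoid-type homeodomains, were not in this window on either strand. The same held for TAATCT. Among 32851 RefSeq promoter windows of this length, 6.25% held TAATCC and 7.31% held TAATCT on either strand. The 4-letter core TAAT, added after the sequence had been seen and contained in both longer motifs, occurred once in the Shox2 window and in 54.9% of all windows. These counts describe letters in 1 short window and say nothing about Pitx1 at the peaks, whose sequence was not read because a genome of build mm9 was not used here.

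Pitx1 peaks were dense over the landscape in both libraries. With 31 replicated regions it was met or exceeded by 2 of 2458 autosomal windows of 1 Mb (0.0814%), tiled from the start of each chromosome and leaving out those that touch it. The other windows held 4.10 ± 4.18 regions (SD over windows), with a median of 3 and a maximum of 34, so the Shox2 window held 7.56 times their mean. Of these windows 435 held 0 regions, windows at chromosome starts among them. They count in the mean and the share, and whether reads can be placed there was not tested. On chromosome 3 itself, 0 of 157 other windows held as many, and their mean was 4.60. The adjoining 1 Mb windows held fewer, with 6 regions on the low side and 11 on the high side, and the next ones out held 2 and 5. Just outside the window, the nearest replicated region on the low side was 74.6 kb beyond the edge (66024879 to 66025877, scores 64.81 in replicate 1 and 224.93 in replicate 2). On the high side it was 14.0 kb beyond (67113594 to 67114413, scores 92.02 and 200.70).

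Each library alone gave a dense window too. Replicate 1 had 37 peaks in the Shox2 window against a median of 5 elsewhere, and 2 of the other windows (0.0814%) held as many. Replicate 2 had 44 against a median of 8, and 9 of the other windows (0.366%) held as many. Peaks covered 40.2 kb of the window in replicate 1 (4.02%, against 0.510% of the autosomes) and 31.3 kb in replicate 2 (3.13%, against 0.517%). These placings cannot be read as a probability, because the window was picked with results known and the tiled windows were not.

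**Figure D1:**
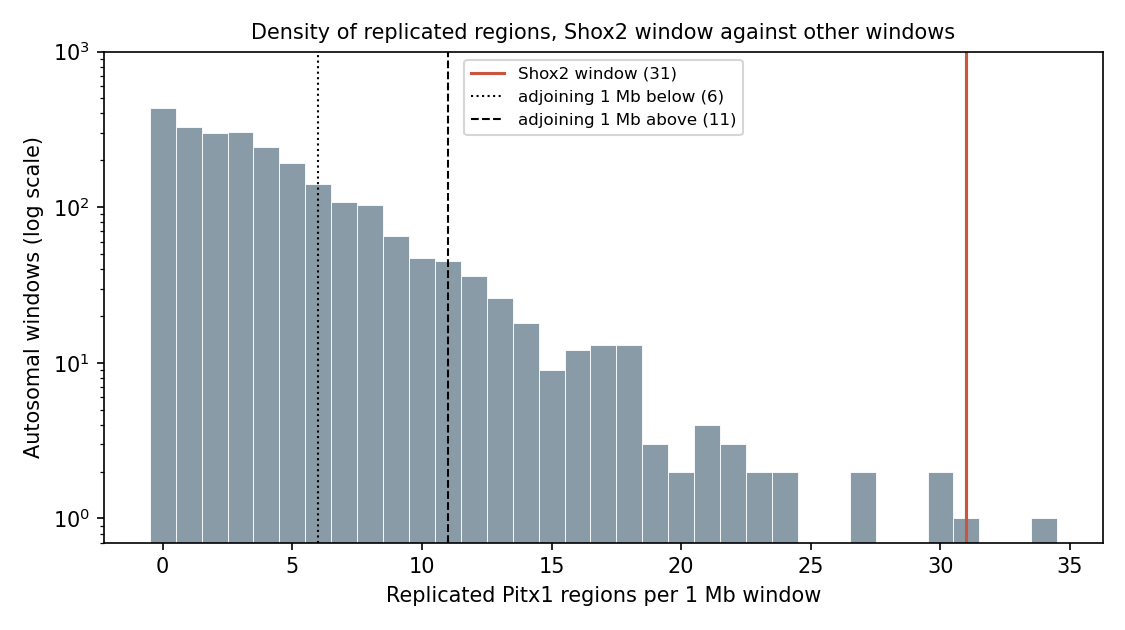
Number of replicated Pitx1 regions in each of 2458 autosomal windows of 1 Mb (bars, log scale on the vertical axis), with the Shox2 window as a solid line at 31 and the adjoining windows as dotted (6) and dashed (11) lines. Most windows held few regions, and 1 window lay above the Shox2 line, at 34.

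Most peaks of the landscape were found in both libraries. An overlap with replicate 2 was seen for 31 of the 37 peaks called in replicate 1 (83.8%, 95% interval by Wilson's method 68.9 to 92.3%), where the share over the whole list was 69.8%. Sharing was seen for 31 of the 44 peaks called in replicate 2 (70.5%, interval 55.8 to 81.8%), where the whole list had 42.6%. The intervals cover counting error only, and since neighbouring peaks are not independent and the window was chosen with results known, they do not test the shares against the whole lists. Window peaks were also wider than those of the whole lists. The median width was 1006 bp against 796 bp in replicate 1, and 703 bp against 455 bp in replicate 2. Whether the higher sharing goes with the width or rank of the peaks was not tested. All 31 regions paired 1 peak with 1 peak. The midpoints of paired peaks, which were chosen because they overlap, were 0 to 413.5 bp apart with a median of 84.5 bp. The replicate 1 peak was the wider in 30 of 31 pairs, as it was in 92.3% of such pairs over all chromosomes.

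Pitx1 regions lay mostly on the downstream, Veph1-facing side of Shox2. That side held 26 regions in 680 kb of window, or 3.82 per 100 kb, and the upstream side held 5 in 320 kb, or 1.56 per 100 kb. The downstream side thus held 83.9% of the regions (95% Wilson interval 67.4 to 92.9%) in 68% of the length. That interval includes 68%, and it covers counting error only, while neighbouring regions are not independent. Counted in each library alone, 32 of 37 peaks (replicate 1) and 35 of 44 peaks (replicate 2) lay downstream. The median distance from Shox2 was 292.1 kb. Within 10 kb of it were 3 regions, within 50 kb 6, within 100 kb 7 and within 250 kb 11.

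**Figure D2:**
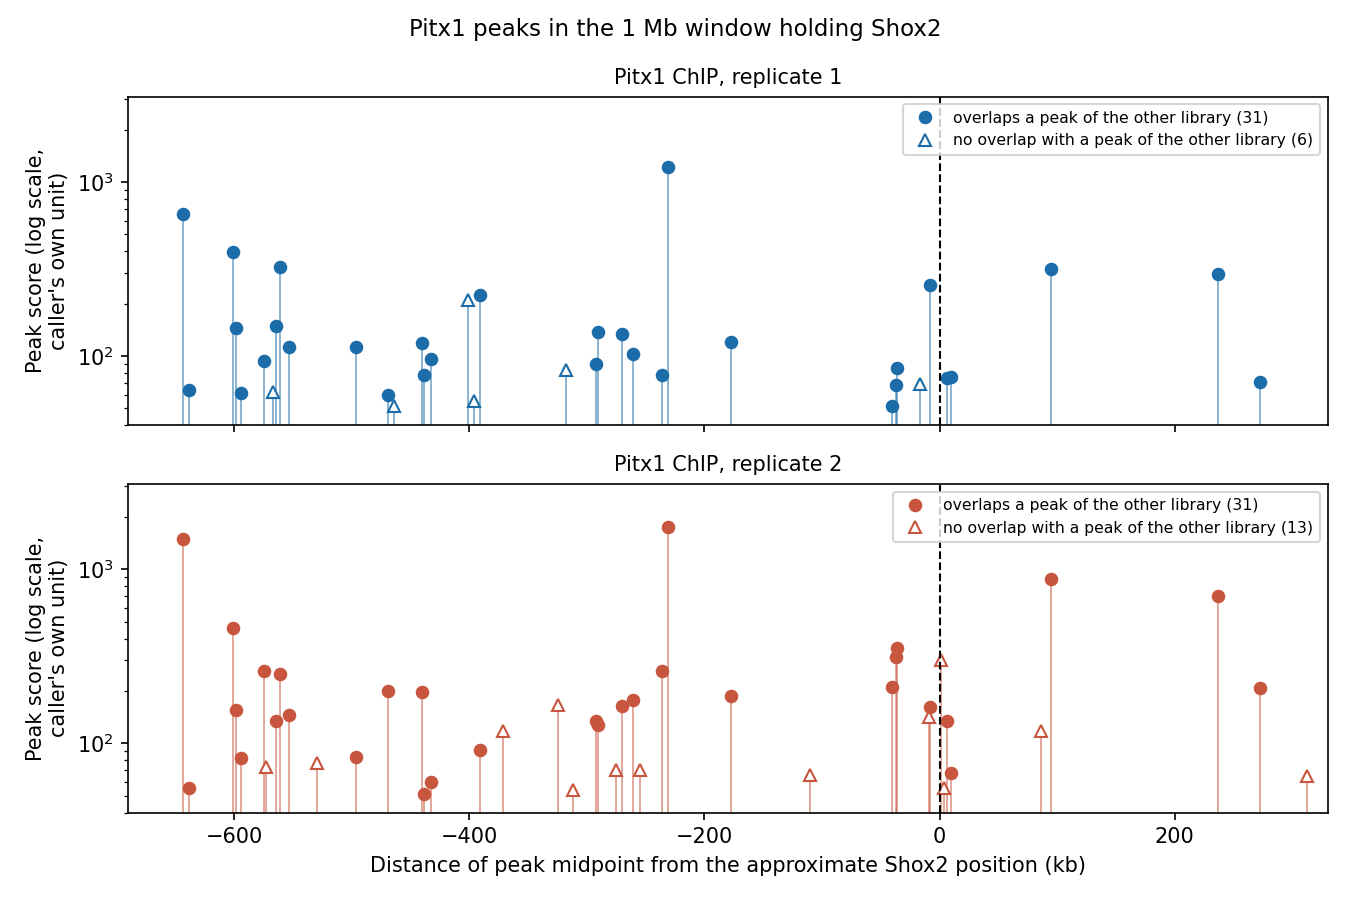
Score of every Pitx1 peak in the window (log scale, the peak caller's own unit) against the distance of its midpoint from the approximate Shox2 position in kb, with replicate 1 above and replicate 2 below. Filled circles overlap a peak of the other library (31 in each) and open triangles do not (6 and 13); the tallest peak of both libraries lies 231.3 kb on the downstream (negative) side.

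The strongest region of the landscape was a distal one. It spanned 66547867 to 66549451, 231.3 kb downstream of Shox2, and scored 1221.84 in replicate 1 (rank 6 of that list) and 1744.49 in replicate 2 (rank 21). By summed rank it was number 6 of all 10274 replicated regions. The score is each peak's own value from the peak caller, used here only to order peaks within a list. A neighbour 4.95 kb farther from the gene, from 66543027 to 66544383, scored 77.36 in replicate 1 and 262.07 in replicate 2, so a region of low rank in replicate 1 adjoined the strongest one. This neighbour was outside the rule for named regions and was picked after its values were seen.

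The second region by summed rank was the outermost on the downstream side. It spanned 66135638 to 66136901, 643.7 kb from Shox2 and on the side of Veph1. It scored 652.97 (rank 92) in replicate 1 and 1489.22 (rank 43) in replicate 2, and was number 45 overall. The next 2 in the order lay upstream, on the Rsrc1 side. The region from 66874135 to 66875635, 94.9 kb from Shox2, scored 315.80 in replicate 1 and 875.69 in replicate 2 (number 356 overall). The region from 67016700 to 67017553, 237.1 kb from Shox2, scored 297.61 and 699.35 (number 452). The upstream side therefore held few regions, of which 2 of 5 were in the best decile of all replicated regions, against 3 of 26 on the downstream side. That decile holds 10% of all regions. The median region stood at 48.6% of the order upstream and at 40.1% downstream (lower is stronger). The decile counts and the medians thus point different ways. With 5 regions upstream they do not show which side was stronger as a set.

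The remaining regions among the best 10 of the window lay at a range of distances. From 66177497 to 66179760, 601.4 kb downstream, scores were 394.65 in replicate 1 and 461.04 in replicate 2; this was the widest region, at 2264 bp. From 66218595 to 66219741, 560.8 kb downstream, they were 324.04 and 249.95. The region nearest to Shox2 on the downstream side, from 66770975 to 66772182 and 8.42 kb away, had 254.53 and 161.02. These 2 regions had the higher raw score in replicate 1.

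Of the other members of that best 10, all had the higher raw score in replicate 2. The region from 66339370 to 66340569, 440.0 kb downstream, scored 118.77 in replicate 1 and 197.24 in replicate 2. The one from 66743348 to 66744199, 36.2 kb downstream, scored 85.49 and 354.23. The one from 66601503 to 66602858, 177.8 kb downstream, scored 120.39 and 187.92. Raw scores are not on a common scale between the lists, so these orders say nothing of a difference in binding.

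By rank the landscape was mixed, with a few very strong regions among many of middling or low rank. In the best decile of replicated regions by summed rank, which holds 10% of all regions, were 5 of the 31, and the median region of the window stood at 40.9% of the order (lower is stronger). Of other autosomal windows, 8 of 2458 (0.325%) held 5 or more such regions. The other windows held 4.10 regions on average, of which 0.414 were in that decile. A window with 31 regions is bound to hold more of them, so this placing largely restates the density. The highest score decile held 8 of the 37 window peaks in replicate 1 (21.6%, 95% Wilson interval 11.4 to 37.2%) and 8 of the 44 in replicate 2 (18.2%, interval 9.51 to 32.0%), where each list has 10%. At the other end, 14 of the 37 peaks in replicate 1 and 14 of the 44 in replicate 2 stood in the lower 50% of their own list. The median window peak stood at 38.9% of the replicate 1 list and at 26.6% of the replicate 2 list, so in the stronger 50% of both. The 16 replicated regions not named by rule scored 51.5 to 225.4 in replicate 1 and 51.2 to 312.0 in replicate 2, with ranks of 1383 to 14255 and 2095 to 24268.

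Replicate ranks of the same region could be far apart. Across the 31 regions Spearman's rho between ranks was 0.369, against 0.555 across the 9891 regions of all chromosomes that pair 1 peak with 1 peak. These describe the lists, and points within the window share a locus and the libraries. The median gap between the rank percentiles of a region was 15.3 percentage points in the window, against 15.8 over all regions. Of the 31, 18 (58.1%) stood relatively higher in replicate 2, where 65.6% of all replicated regions did, and 13 in replicate 1.

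**Figure D3:**
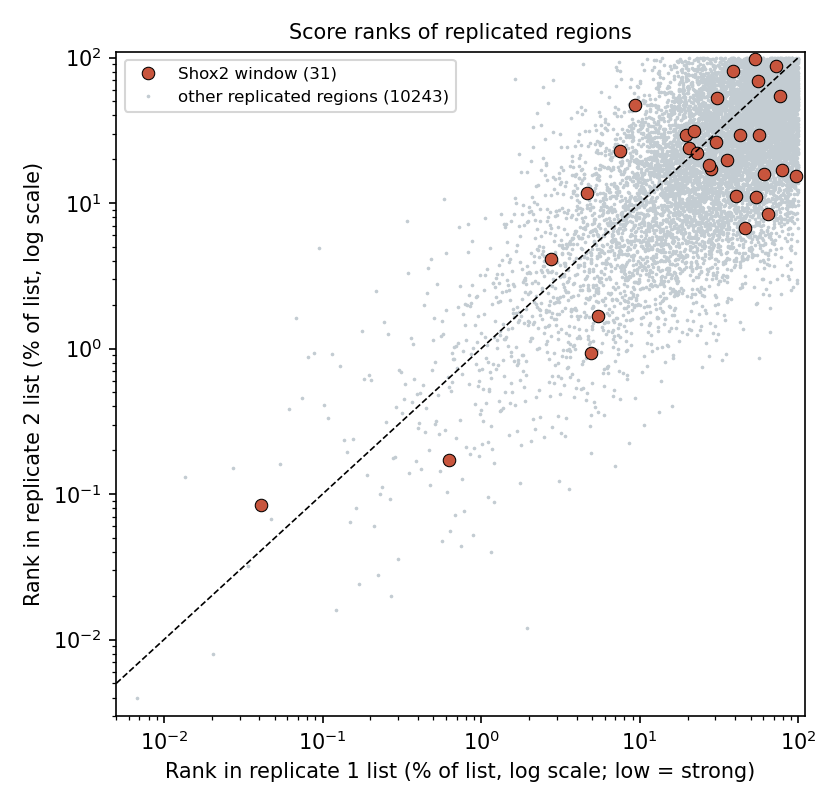
Rank of each replicated region as a percent of the replicate 1 list (horizontal) and of the replicate 2 list (vertical), both on log scales with strong peaks at low values; large points are the 31 regions of the Shox2 window, small points the other 10243, and the dashed line marks equal rank. The strongest Shox2-window region sits at 0.0407% and 0.0839%, and most others lie in the crowded weaker corner.

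Regions close to Shox2 were among those with unequal rank. An example was a run of 3 regions from 66739078 to 66744199, 36.2 to 40.5 kb downstream of the gene. They stood at 96.6, 64.5 and 46.4% of the replicate 1 list and at 15.3, 8.37 and 6.78% of the replicate 2 list, so all 3 were relatively stronger in replicate 2. The region at 8.42 kb downstream had the opposite order, at 22.8% in replicate 2 and 7.55% in replicate 1. Farther out, the region from 66387837 to 66389446 was at 9.37% in replicate 1 and 47.4% in replicate 2. These regions were picked for their unequal ranks, and the read depth of the libraries is unknown.

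Around the gene itself, within 10 kb of 66.78 Mb, replicate 2 had 6 peaks and replicate 1 had 3. The whole list of replicate 2 has 25027 peaks, against 14753 in that of replicate 1, so nothing about the locus is read from these counts. The peak nearest to that position was called in replicate 2 only. It ran from 66780817 to 66782026, 1.42 kb from the position, with a score of 300.23 (rank 2248, at 8.98% of its list), and the nearest replicate 1 peak was 4.12 kb away. It was the strongest unshared peak of the window and the 1 unshared peak among the window's 8 in the highest decile of replicate 2, a decile in which 4.96% of peaks were unshared over the genome. The other 2 peaks that replicate 2 alone had within 10 kb were weaker. They ran from 66783142 to 66783895 (score 55.75) and from 66770249 to 66770892 (score 142.50), the second of which ended 0.0820 kb short of a replicate 1 peak. The nearest region on the upstream side was called in both libraries, from 66786073 to 66787092, 6.58 kb from the position, and it scored 75.07 in replicate 1 and 134.20 in replicate 2. The next, at 9.56 kb, had 75.45 and 67.46. Peaks within 10 kb of Shox2 were thus of middling or low rank, apart from the one at 8.42 kb downstream in replicate 1 and the unshared peak of replicate 2 at 1.42 kb.

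Unshared peaks had about the same standing in the window as in the whole lists. Their median rank was at 69.5% of the list in replicate 1 and 62.5% in replicate 2, where all unshared peaks stood at 71.1% and 64.6%. The 6 unshared peaks of replicate 1 scored 51.3 to 210.0 with a median of 65.3, against a median of 111.9 for its 31 shared ones. The 13 of replicate 2 scored 54.1 to 300.2 with a median of 73.3, against 178.5 for its shared ones. The strongest unshared peak of replicate 1 lay from 66377995 to 66379230, 401.4 kb downstream (score 209.98, rank 1587), and its nearest replicate 2 peak was 9.56 kb away. In replicate 1 0 of the 8 window peaks of the highest decile were unshared, where 0.746% were over the genome.

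Of the 31 replicated regions, 13 lay in short runs and the other 18 did not. The median distance between neighbouring midpoints was 17.3 kb in the window and 88.7 kb over the autosomes, and 14 of the 30 gaps were under 10 kb. Runs of 3 or more regions with gaps under 10 kb numbered 4 and held 13 of the 31 regions, where 5.99% of autosomal regions were in such runs; a window with this many regions is bound to have short gaps. The number of runs was 1 in the better-scoring 50% of the lists, 2 with reciprocal overlap of at least 50%, and 2 with gaps under 5 kb. The largest run had 4 regions over 22.6 kb, from 66204742 to 66227325, between 553.2 and 574.8 kb downstream of Shox2. Its members scored 93.11, 148.22, 324.04 and 112.84 in replicate 1 and 259.81, 133.83, 249.95 and 144.66 in replicate 2, from low to high coordinate. Different members had the highest score of the run in each library. In replicate 2 the scores of 259.81 and 249.95 were close, at 11.2% and 11.8% of the list. Within 100 kb a region of the landscape had up to 10 other replicated regions, with a median of 6, against a median of 1 over the autosomes.

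A pair of gaps exceeded 100 kb, where the median gap over the autosomes was 88.7 kb. On the downstream side 137.3 kb separated the regions at 177.8 and 40.5 kb from Shox2, with 1 unshared peak of replicate 2 in between (score 65.65). On the upstream side 142.2 kb separated the regions at 94.9 and 237.1 kb, with 0 peaks of either library in between. The outermost upstream region, from 67052606 to 67053230 and 272.9 kb away, scored 70.98 in replicate 1 and 207.94 in replicate 2. In steps of 100 kb, replicated regions numbered 3 beyond 600 kb downstream, 6 between 500 and 600 kb, 5 between 400 and 500 kb, 1 between 300 and 400 kb, 6 between 200 and 300 kb, 1 between 100 and 200 kb and 4 in the nearest 100 kb. Upstream they numbered 3, 0 and 2 in successive steps, and 0 in the last 20 kb of the window. Empty stretches can also hold sequence that reads cannot be placed on, which was not tested.

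**Figure D4:**
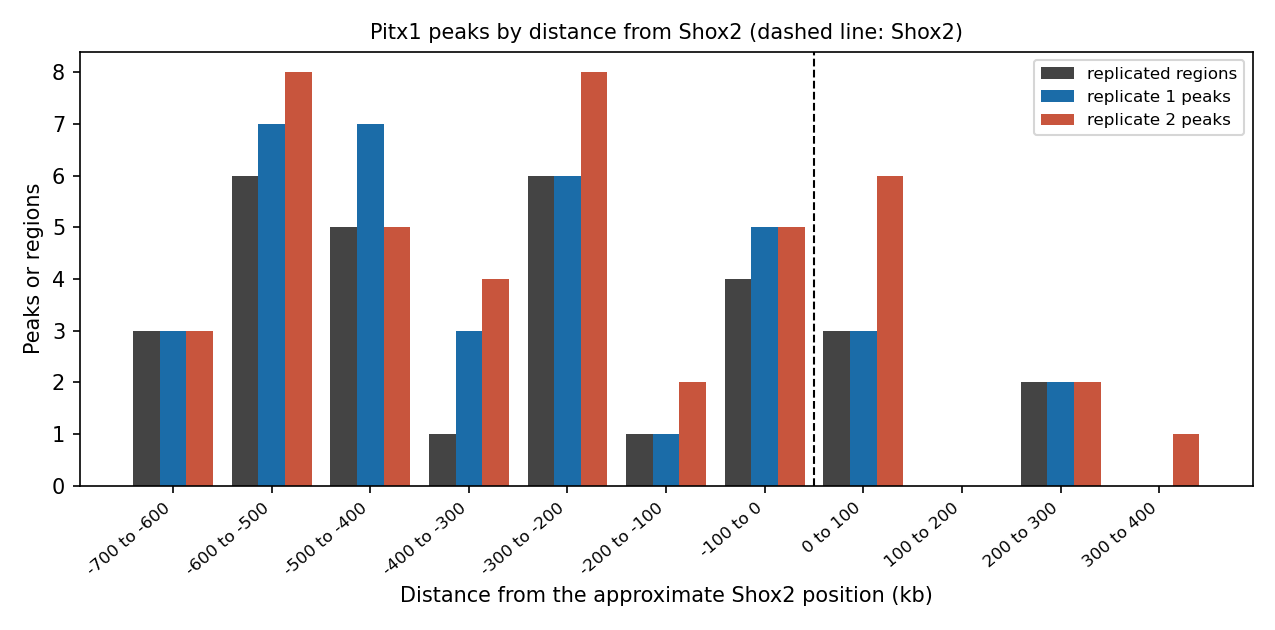
Number of replicated regions, replicate 1 peaks and replicate 2 peaks in steps of 100 kb from the approximate Shox2 position (dashed line; negative is downstream). The outermost steps lie only partly in the window (80 kb on the left, 20 kb on the right); regions are most numerous at 500 to 600 kb and 200 to 300 kb downstream, with 6 each, and the step 100 to 200 kb upstream is empty in both libraries.

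A further list deposited by the authors gives 1 bp positions without scores. It held 30 positions in the window, each inside a peak of both libraries; the median distance to the middle of the peak in replicate 2 was 86.5 bp. Of the 31 replicated regions 30 held a position, where 99.7% did over the genome. The 1 region without a position was the strongest, 231.3 kb downstream of Shox2.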

How the data were processed

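Pitx1 ChIP-seq was done on hindlimb buds fixed in 1% formaldehyde, per the labels' protocols. The submitters' processing notes name CASAVA 1.7 and 1.8.2, Bowtie 0.12.8, MACS 1.4.2, bedtools 2.16.2 and build mm9, without roles; for caller settings and use of input, the sources used here give nothing. The deposited peak lists hold each peak's position and the authors' caller score, at least 50.0 in replicate 1 and 50.01 in replicate 2, from 1 list per library. The sources used here do not say how the authors made the list of 1 bp positions. Read counts were not used here, so depth is unknown.

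The members and lists were chosen with earlier results of these data known. Peaks were assigned by midpoint, ranked by score within their list and merged across lists on overlap of 1 bp or more. Windows were tiled over the 19 autosomes up to the last peak. Wilson intervals cover counting error only. Named in full by rule were the 10 replicated regions of lowest summed rank, the nearest and outermost on each side, the strongest unshared peak of each list and the largest run; other named peaks were picked after their values were seen. Likeness to other genes was not measured. Alternatives were score thresholds, overlap definitions, gaps, window sizes and tilings, the Shox2 position and each replicate alone. The code was tested on simulated lists. Software was matplotlib 3.10.9, scipy 1.17.1, pandas 2.3.3, numpy 2.4.6 and Python 3.11.15.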

Additional observations from a re-analysis of the deposited data

How the results depend on the processing

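No paired analysis was possible because only the ChIP libraries had peaks, so the numbers shared with the inputs pair nothing. Of 46 alternative values, 38 stayed within 1.5 times the count, or within the 95% binomial interval of the share, given in the report. The other 8 were as follows. With only the better-scoring 50% of either list, and so fewer peaks, there were 19 replicated regions and 1 run in the window. With the lists brought to the same length by score, 84.4% of the window's replicate 2 peaks were shared, against 70.5% before. The replicate 1 share went the other way, from 83.8% to 73.0%, and stayed within its interval. The share over the whole shortened list was not computed, so 84.4% has no background to be read against. Runs numbered 2 with reciprocal overlap of at least 50% and 2 with gaps under 5 kb. The share of autosomal windows with as many regions or peaks was 0.548% for 500 kb and 0.410% for 2 Mb about the same centre. With each replicate left out in turn it was 0.0814 to 0.366%. The share of regions downstream of Shox2 was 80.6% with its position taken 10 kb lower and 90.3% with it 10 kb higher. The read depth of either library is unknown, so its part in peaks called in a single library was not tested.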
